A study of Homo sapiens with 6 samples.

Results

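The mRNAs of the core proteins of the spliceosomal small nuclear ribonucleoproteins (snRNPs) were examined in MDA-MB-231 cells that overexpressed LARP6, a La-related protein that binds RNA. MDA-MB-231 is an established human line of triple-negative breast cancer. The set comprised every protein-coding row of the count table whose symbol starts with SNRP, SF3A, SF3B or PRPF, or with LSM followed directly by a digit, which gave 47 of 28675 rows. The rule uses gene symbols and no measured value. Cells carrying a no-load control gave 3 libraries (genotype label No-load control), and cells overexpressing LARP6 gave 3 libraries. No drug or time point is named for either group, and neither the vector nor the number of clones is given in the sources used here. Nor is it said whether replicates were separate cultures, so p-values measure only the spread between libraries, part of which may be technical. The study was set up around the RNA targets of LARP6 and its part in splicing.

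The spliceosome removes introns from pre-mRNA and is assembled from snRNPs, each a small nuclear RNA (snRNA) in complex with proteins. The U1 snRNP pairs with the 5′ splice site, the U2 snRNP with its SF3A and SF3B complexes holds the branch point, and the U4/U6.U5 tri-snRNP brings in the parts that become the catalytic centre. A ring of Sm proteins sits on the U1, U2, U4 and U5 snRNAs and a related ring of LSM proteins on U6, while a second LSM ring in the cytoplasm acts in mRNA decay. Tumour cells are known to depend on these proteins, and SF3B1 in particular is mutated in several cancers and is the target of splicing inhibitors.

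Depth ranged from 29409101 to 33387050 counts over the 6 libraries, and since reads carried no stated molecular identifiers they need not each stand for 1 molecule. LARP6 itself stood at 40.7 to 44.2 CPM (counts scaled to a common depth with edgeR's TMM factors) in control libraries and at 1995 to 2198 CPM in LARP6 libraries, so the targeted gene followed the labels. Of 6 genes listed as marks of MDA-MB-231 cells, VIM, CD44, LGALS1, S100A4 and MSN lay between 445 and 3397 CPM, whereas SPARC went against the list at 0.122 to 0.369 CPM. Of 5 genes listed as low, ESR1 (at most 0.0329 CPM) and PGR (at most 0.221 CPM) were at or near 0, CDH1 and GATA3 reached 8.34 and 12.1 CPM, and ERBB2 read 54.2 to 59.3 CPM. The summed leukocyte, endothelial and fibroblast markers reached at most 0.820, 7.28 and 7.28 CPM in any library, with CD3E at 0 to 0.0339 CPM, VWF at 0.0631 to 0.203 CPM and DCN at 0.213 to 0.492 CPM.

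Most of the snRNP protein mRNAs did not pass the test, and most estimates were small. Of the 46 members that passed edgeR's expression filter, PRPF39 rose, SNRPA, SF3A2, SF3B5 and SF3B4 fell, and 41 did not pass the test at a Benjamini-Hochberg adjusted p below 0.05. The 5 called members were 10.9% of those tested, beside 979 of 16226 genes (6.03%) in the whole table. Split by direction, 1 of 46 was called higher beside 2.43% of all genes, and 4 of 46 were called lower beside 3.6%. The median log2 fold change (LARP6 over control) was -0.029 over the members, or -1.97%, and 0.0038 over all genes tested, with 16 members positive and 30 negative. The 3 LARP6 libraries lay wholly below the 3 control libraries for 12 members (26.1%), namely SNRPD1, SNRPD3, SNRPA, SNRPC, SF3A1, SF3A2, SF3B2, SF3B3, SF3B4, SF3B5, LSM2 and LSM4, where the same held for 11.7% of all genes. They lay wholly above for PRPF39 alone (2.17%), where the same held for 10.6% of all genes. With libraries scaled by total count only, these counts became 8 below (all genes 8.05%) and 3 above (all genes 14.9%), and the medians became -0.0025 over the members and 0.030 over all genes.

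The error was small enough for modest changes to be bounded. The coefficient of variation over the 3 control libraries ranged from 0.219% to 13.98% across members, with a median of 2.70%. The 95% interval of the fold change lay within 1.2-fold of no change in either direction for 43 of the 46 members, with PRPF39 and PRPF40B among the exceptions. At an unadjusted p below 0.05, 13 of the 46 members passed in edgeR's test, beside 19% of all genes in either direction. Of the 13, 11 were lower, and this split by direction was not taken over all genes. Summed over the members, the level was 5598, 5618 and 5653 CPM in control libraries and 5473, 5503 and 5480 CPM in LARP6 libraries, so the groups did not overlap in this sum. As a share of the raw counts, which uses no scaling factor, the members took 0.557%, 0.558% and 0.556% in control libraries and 0.556%, 0.554% and 0.549% in LARP6 libraries, where the groups nearly touched. In bulk RNA, fewer cells expressing a gene and less of its RNA per cell cannot be told apart.

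**Figure D1:**
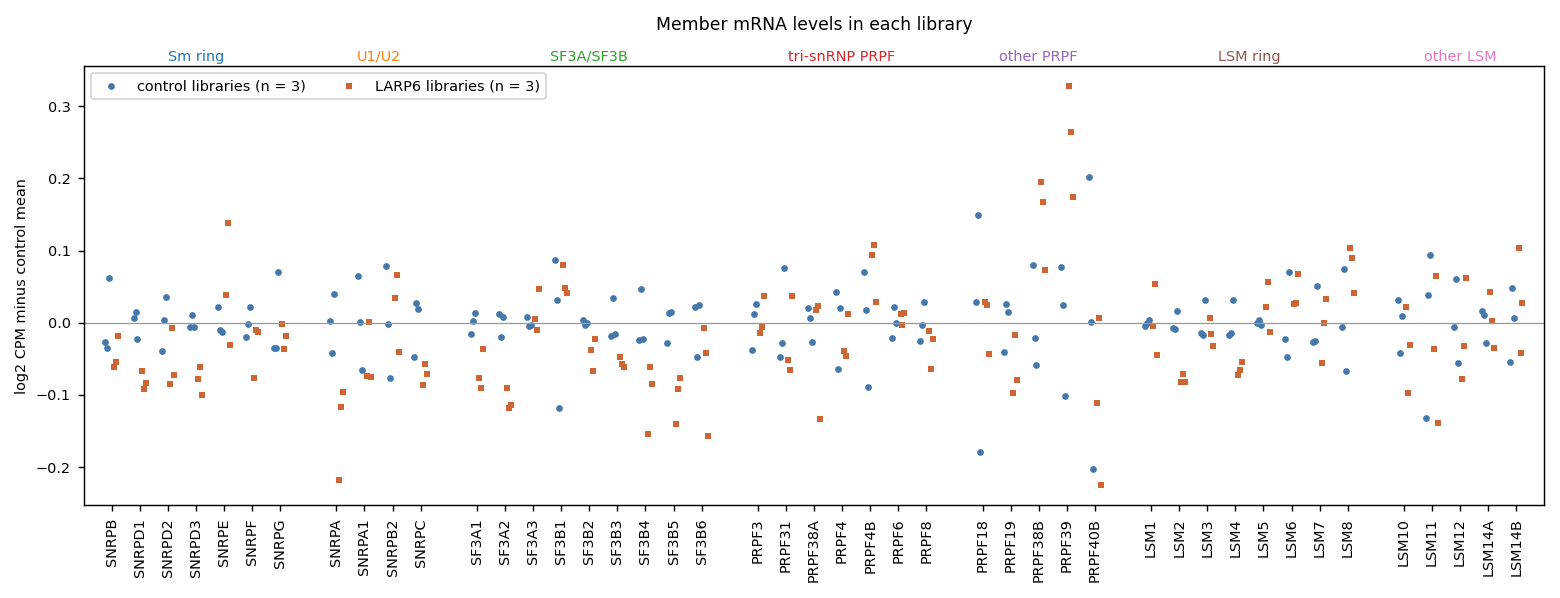
Level of tested members in each library, as log2 CPM minus the mean of the 3 control libraries (y axis), with members grouped by role along the x axis. Circles are control libraries and squares LARP6 libraries, 3 each, and the squares of PRPF39 lie above all its circles while those of SNRPA, SF3A2, SF3B4 and SF3B5 lie below.

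The 5 called members differed in base composition, with PRPF39 poor in G and C and the 4 that fell richer in them. To show this, the middle 120 bases of the longest coding sequence of each are given 5′ to 3′ from GENCODE v29 (GRCh38), with G and C in capitals and A and T in lower case.
SNRPA: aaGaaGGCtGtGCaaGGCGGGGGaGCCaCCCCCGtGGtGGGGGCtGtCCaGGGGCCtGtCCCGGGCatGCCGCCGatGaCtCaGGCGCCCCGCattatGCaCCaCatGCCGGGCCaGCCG
SF3A2: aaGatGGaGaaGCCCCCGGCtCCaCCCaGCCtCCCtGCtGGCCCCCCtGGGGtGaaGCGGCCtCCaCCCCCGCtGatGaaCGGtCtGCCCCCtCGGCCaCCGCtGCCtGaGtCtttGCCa
SF3B4: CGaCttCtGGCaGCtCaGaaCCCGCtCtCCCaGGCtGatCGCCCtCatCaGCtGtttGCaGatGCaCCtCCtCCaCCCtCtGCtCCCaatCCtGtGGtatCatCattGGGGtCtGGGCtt
SF3B5: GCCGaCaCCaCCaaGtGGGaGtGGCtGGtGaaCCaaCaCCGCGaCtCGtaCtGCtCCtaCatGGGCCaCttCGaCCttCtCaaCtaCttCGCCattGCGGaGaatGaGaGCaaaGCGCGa
PRPF39: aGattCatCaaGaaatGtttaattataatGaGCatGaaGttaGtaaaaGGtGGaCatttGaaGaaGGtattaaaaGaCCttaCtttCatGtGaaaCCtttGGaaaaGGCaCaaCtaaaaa
The stretch of SNRPA spans coding bases 364 to 483 of 846 and holds 71.7% G and C. That of SF3A2 spans bases 637 to 756 of 1392 and holds 70.0%, with runs of proline codons (CCN) visible in its capitals. The stretches of SF3B4 (bases 577 to 696 of 1272) and SF3B5 (bases 70 to 189 of 258) hold 58.3% and 57.5%. PRPF39 stands apart, with 36 G or C among the 120 bases from 944 to 1063 of 2007. Over the whole coding sequence the G and C content was 58.5% for SNRPA, 67.7% for SF3A2, 58.1% for SF3B4, 57.8% for SF3B5 and 37.4% for PRPF39.

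The Sm ring was the most abundant group, and none of its 7 tested members passed the test (0 higher, 0 lower, median log2 fold change -0.046). SNRPB, which encodes the SmB and SmB′ proteins, had the highest level per length of any member, at 371 ± 12.9 FPKM (SD, n = 3; FPKM is the authors' read density, scaled to gene length and depth) in control libraries. In CPM it read 531, 529 and 565 in control libraries and 519, 521 and 535 in LARP6 libraries. The highest LARP6 library lay above the lowest control, and the log2 fold change of -0.046 (edgeR adjusted p = 0.345, SE 0.026) did not pass. SNRPD2, the Sm protein that pairs with SmD1, came second of all members at 210 ± 4.52 FPKM. SNRPD1 itself, the SmD1 protein, had the lowest level per length in the ring at 25.9 ± 0.427 FPKM in control libraries. The order depends on length, since the FPKM values imply 5503 bases for SNRPD1 and 1447 for SNRPB. By mean CPM in control libraries SNRPD1 (144) was not the lowest, with SNRPG at 143, SNRPD3 at 140, SNRPF at 138 and SNRPE at 115. The CPM values of SNRPD1 were 145, 146 and 142 in control libraries and 138, 135 and 136 in LARP6 libraries. The groups did not overlap, yet the log2 fold change of -0.081 (SE 0.032) gave an edgeR adjusted p of 0.118. SNRPD3 (SmD3) likewise lay lower without overlap, at 140 ± 0.896 against 133 ± 1.81 CPM (edgeR adjusted p = 0.126), and SNRPE (SmE), the member of the ring with a positive estimate, was at a log2 fold change of 0.050 (SE 0.034). SNRPF (SmF) and SNRPG (SmG) had log2 fold changes of -0.033 (SE 0.032) and -0.021 (SE 0.032). The proteins of the ring are assembled together, but their mRNA levels per length spanned 14.5-fold, from SNRPD1 to SNRPB. In CPM, not divided by length, the control means ran from 115 for SNRPE to 542 for SNRPB.

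SNRPN, the imprinted paralog of SNRPB known for its expression in brain, was the member that was not tested. It had 1, 1 and 2 counts in the control libraries and 2, 1 and 0 in the LARP6 libraries, 7 in all. A count of 3 corresponds to 0.0899 to 0.102 CPM in these libraries, so SNRPN was at or under that limit in every library and no fold change is given. Of the stretches of 75 bases in its longest coding transcript, 42.1% also occur in other genes of GENCODE v29, mostly in SNURF, so even these counts are uncertain.

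Among the particle proteins of the U1 and U2 snRNPs, 1 of 4 fell and none rose (median log2 fold change -0.061). Of all genes tested, 3.6% fell. SNRPA, the U1-A protein that binds a stem-loop of the U1 snRNA, had the smallest p of all members. The gene (ENSG00000077312.9) lies at 40750637 to 40765389 on the plus strand of chromosome 19. It read 128, 124 and 131 CPM in control libraries and 110, 118 and 120 CPM in LARP6 libraries. All LARP6 libraries lay below all control libraries, with LARP6 replicate 1 the lowest. The log2 fold change was -0.14 (SE 0.034, edgeR adjusted p = 0.0024), or -9.43% with a 95% interval from -13.5% to -5.15%. Without LARP6 replicate 1 the call was lost (edgeR adjusted p = 0.115). SNRPC, the U1-C protein that touches the 5′ splice site, read 264, 278 and 276 CPM in control libraries and 257, 262 and 259 CPM in LARP6 libraries. These groups did not overlap either, but by a narrow margin, and the log2 fold change of -0.072 (SE 0.028) had an edgeR adjusted p of 0.113. The U2 proteins SNRPA1 (U2-A′) and SNRPB2 (U2-B″) overlapped between groups. SNRPA1 read 76.3, 73.0 and 69.7 CPM in control libraries and 69.3, 73.0 and 69.2 CPM in LARP6 libraries, and SNRPB2 had a log2 fold change of 0.020 (SE 0.036).

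The SF3A and SF3B complexes of the U2 snRNP held the other members that fell, 3 of 9 (median log2 fold change -0.067), while none rose. Of all genes tested, 3.6% were called lower. For 6 of the 9 the LARP6 libraries lay wholly below the control libraries, where the same held for 11.7% of all genes. Such counts depend on scaling, and over all members the count went from 12 to 8 with scaling by total count only. SF3A2, the SF3A subunit also known as SAP62, is encoded by ENSG00000104897.10 at 2236504 to 2248679 on the plus strand of chromosome 19. It read 116, 113 and 116 CPM in control libraries and 108, 106 and 106 CPM in LARP6 libraries. The groups were apart by more than the spread within either, and the log2 fold change was -0.11 (SE 0.034, edgeR adjusted p = 0.0378), or -7.18%. SF3B5, a small subunit of the SF3B core, is encoded by the 1-transcript gene ENSG00000169976.7 at 144094881 to 144095573 on the minus strand of chromosome 6. Its values were 129, 133 and 133 CPM in control libraries and 119, 123 and 125 CPM in LARP6 libraries. The highest LARP6 library stayed under the lowest control, with a log2 fold change of -0.10 (edgeR adjusted p = 0.0388, SE 0.033). SF3B4, the subunit with RNA recognition motifs known as SAP49, is encoded by ENSG00000143368.10 at 149923317 to 149928344 on the minus strand of chromosome 1. It read 140, 147 and 140 CPM in control libraries and 128, 137 and 134 CPM in LARP6 libraries. Again no library overlapped, and the log2 fold change was -0.099 (SE 0.032, edgeR adjusted p = 0.0450).

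These 3 calls were near the threshold. Each was lost with DESeq2, at adjusted p-values of 0.0521 for SF3A2, 0.0625 for SF3B5 and 0.0889 for SF3B4, where DESeq2 called 6.21% of the genes it gave an adjusted p and kept SNRPA (0.0139) and PRPF39 (0.0345). With limma on log2 of FPKM plus 1, which called 0.801% of genes, none of the 5 members passed. Leaving out single libraries ended the SF3A2 call in all 6 cases, while the SF3B5 call held without control replicate 1 or LARP6 replicate 3 and the SF3B4 call without control replicate 3 or LARP6 replicate 3. SF3B1, the scaffold that grips the branch point and the drug target of the complex, did not share the direction. It read 170, 164 and 148 CPM in control libraries and 169, 165 and 165 CPM in LARP6 libraries, with control replicate 3 low and the groups overlapping (log2 fold change 0.054, SE 0.034, edgeR adjusted p = 0.407). SF3B3, the large propeller protein that embraces the core, had the lowest level per length of the complex, at 10.8 ± 0.208 FPKM in control libraries. It read 152, 157 and 152 CPM in control libraries and 149, 148 and 147 CPM in LARP6 libraries (log2 fold change -0.055, SE 0.031, edgeR adjusted p = 0.338). SF3A1, SF3B2 and SF3B6 had log2 fold changes of -0.067, -0.042 and -0.069, and SF3A3 of 0.014, and none of these passed.

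**Figure D2:**
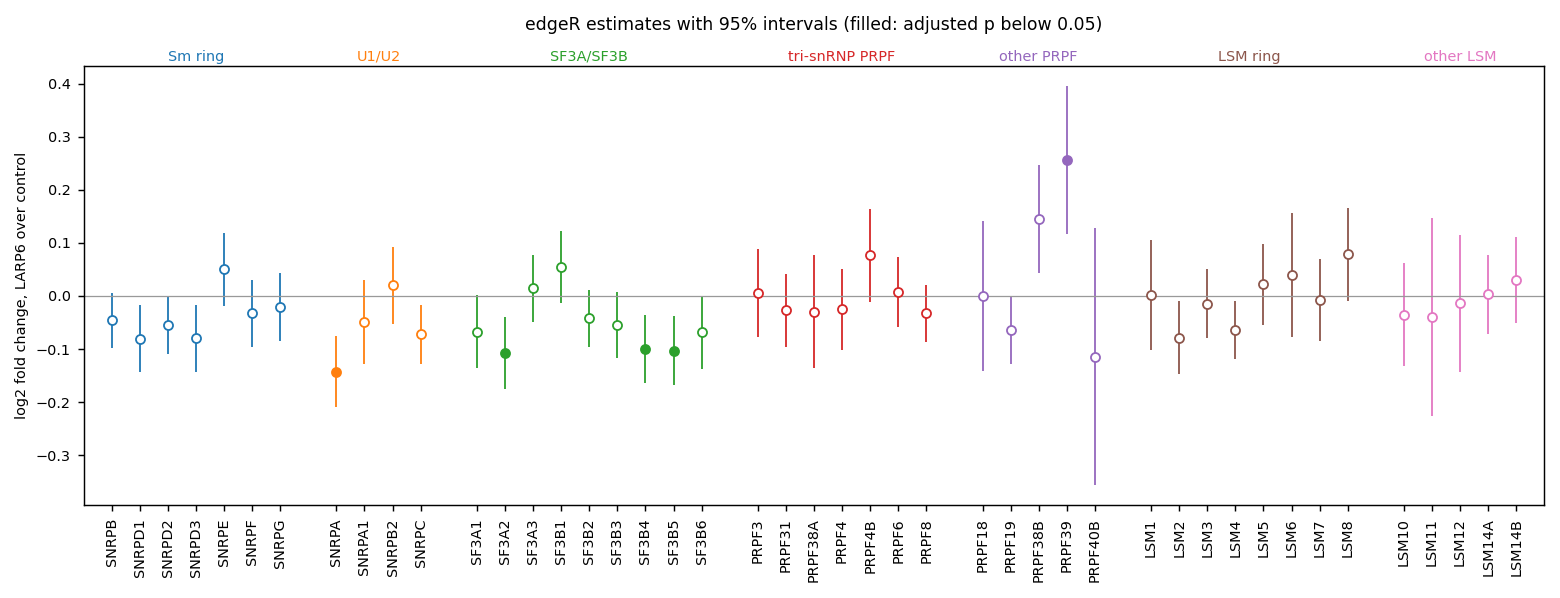
Log2 fold change of tested members (y axis, LARP6 over control) with 95% intervals from edgeR, by role along the x axis; filled points have an adjusted p below 0.05. PRPF39 has the largest estimate at 0.26, and the intervals of some members that were not called, such as PRPF38B and SNRPC, also exclude 0.

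None of the 7 PRPF genes of the tri-snRNP passed the test. Their log2 fold changes lay between -0.033 and 0.077 (median -0.025), and the groups overlapped for each of them. PRPF8, the large U5 protein at the catalytic centre, read 352, 357 and 365 CPM in control libraries and 355, 343 and 352 CPM in LARP6 libraries. That left it with a log2 fold change of -0.033 (SE 0.027), the most negative of the group. PRPF31, the U4 protein mutated in a form of retinitis pigmentosa, had the highest level per length of the group, at 35.8 ± 1.52 FPKM in control libraries. It read 106, 107 and 115 CPM in control libraries and 105, 104 and 112 CPM in LARP6 libraries, where replicate 3 was the highest in each group. PRPF38A, which joins the complex at activation, had the lowest at 5.41 ± 0.116 FPKM. It read 35.3, 34.9 and 34.1 CPM in control libraries and 35.2, 35.3 and 31.7 CPM in LARP6 libraries. PRPF3, PRPF4 and PRPF6, which hold the tri-snRNP together, had log2 fold changes of 0.0055, -0.025 and 0.0075. PRPF4B, the kinase that phosphorylates tri-snRNP proteins, had the largest positive estimate at 0.077 (SE 0.044, edgeR adjusted p = 0.345).

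The remaining PRPF genes held the single member that rose, 1 of 6, while none fell (median log2 fold change 0.011). Of all genes tested, 2.43% rose. PRPF39, an alternative splicing factor of the U1 snRNP, is encoded by ENSG00000185246.18 at 45084099 to 45116282 on the plus strand of chromosome 14. It read 18.4, 17.7 and 16.2 CPM in control libraries and 21.9, 20.9 and 19.7 CPM in LARP6 libraries. Every LARP6 library lay above every control library. The mean went from 17.5 ± 1.096 to 20.8 ± 1.11 CPM (SD, n = 3), a rise of 19.4% with a 95% interval from 8.40% to 31.5%. The log2 fold change was 0.26 (SE 0.071, edgeR adjusted p = 0.0132), the largest in size among the members. On the authors' FPKM scale the gene was low, at 3.10 ± 0.208 in control and 3.76 ± 0.191 in LARP6 libraries. The call was lost without control replicate 3 (edgeR adjusted p = 0.0998), LARP6 replicate 1 (0.141) or LARP6 replicate 2 (0.0611).

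PRPF38B, a paralog of PRPF38A, was the next highest in rank of p with a positive estimate. It read 39.2, 36.5 and 35.6 CPM in control libraries and 42.4, 41.6 and 39.0 CPM in LARP6 libraries. The lowest LARP6 library fell just under the highest control, and the log2 fold change of 0.14 (SE 0.051) had an edgeR adjusted p of 0.0707. With libraries scaled by total count only it passed (edgeR adjusted p = 0.0339), as it did without control replicate 1 or LARP6 replicate 3. PRPF19, the ubiquitin ligase that names the Prp19 complex, had the highest level per length here, at 42.4 ± 0.852 FPKM in control libraries. Its values were 137, 144 and 143 CPM in control libraries and 132, 140 and 134 CPM in LARP6 libraries, which overlapped (log2 fold change -0.065, SE 0.032). PRPF40B, a U1-linked protein with WW domains, was the lowest tested member at 0.543 ± 0.0751 FPKM. It read 6.70, 5.83 and 5.06 CPM in control libraries and 5.39, 5.85 and 4.98 CPM in LARP6 libraries. This spread left an interval from 21.9% lower to 9.31% higher. PRPF18, which acts at the second step of splicing, had a log2 fold change of -0.00032 (SE 0.072), and 40.1% of its 75-base stretches also occur in AL157392.5, a protein-coding gene on the same strand.

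The LSM ring, the counterpart of the Sm ring on U6 and, with LSM1 in place of LSM8, in mRNA decay, had 8 tested members and no call (median log2 fold change -0.0029). LSM1 and LSM8 distinguish the cytoplasmic from the nuclear ring. LSM1 varied little, with 35.2, 35.3 and 35.4 CPM in control libraries and 35.2, 36.6 and 34.2 CPM in LARP6 libraries. Its 95% interval ran from 6.87% lower to 7.63% higher. LSM8 read 53.5, 56.5 and 51.3 CPM in control libraries and 57.7, 57.2 and 55.3 CPM in LARP6 libraries, with control replicate 2 inside the LARP6 range (log2 fold change 0.078, SE 0.044, edgeR adjusted p = 0.333). LSM2, which the rings share, had the highest FPKM of the group at 87.4 ± 0.636 in control libraries. Its values were 105, 105 and 107 CPM in control libraries and 99.9, 101 and 99.9 CPM in LARP6 libraries. These did not overlap, but the log2 fold change of -0.079 (SE 0.035) had an edgeR adjusted p of 0.178. LSM4 likewise did not overlap between groups, at 276 ± 5.21 against 264 ± 1.74 CPM (edgeR adjusted p = 0.167). LSM3, LSM5, LSM6 and LSM7 had log2 fold changes from -0.014 to 0.039.

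Among the other LSM genes 0 of 5 were called, with log2 fold changes from -0.040 to 0.030. LSM10 and LSM11 replace a pair of Sm proteins in the U7 snRNP, which processes histone mRNA rather than splicing. LSM10 read 42.7, 40.6 and 42.1 CPM in control libraries and 42.4, 39.1 and 40.9 CPM in LARP6 libraries. LSM11 was lower, at 9.09, 10.2 and 10.6 CPM in control libraries and 9.72, 10.4 and 9.05 CPM in LARP6 libraries, and 1.33 ± 0.0985 FPKM in controls. In both genes the groups overlapped. LSM14A and LSM14B, which belong to cytoplasmic granules of silent mRNA, had log2 fold changes of 0.0035 (SE 0.038) and 0.030 (SE 0.041). LSM12 was at -0.014 (SE 0.065), and 21.3% of its 75-base stretches are shared with a pseudogene.

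**Figure D3:**
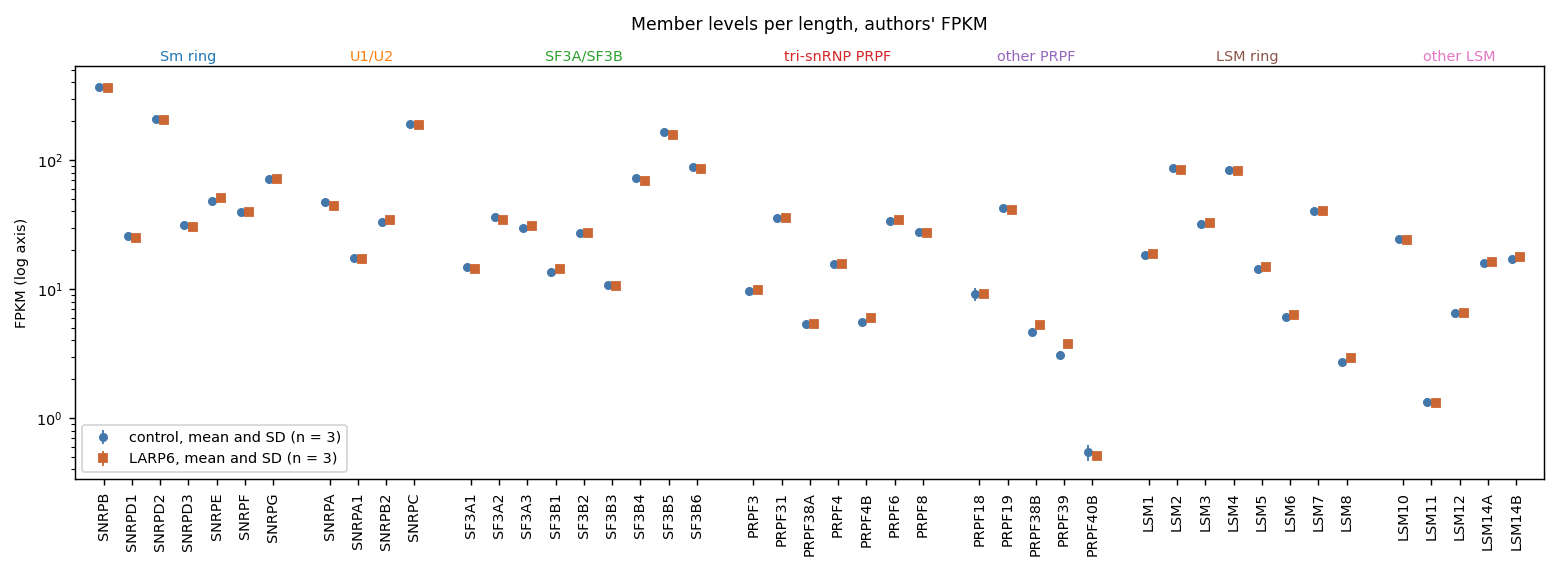
Mean level of tested members over 3 control and 3 LARP6 libraries on the authors' FPKM scale (y axis, log), with bars of 1 SD, by role along the x axis. Levels run from SNRPB at 371 FPKM in control libraries to PRPF40B at 0.543 FPKM.

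Levels per length differed far more between members than between groups. After SNRPB and SNRPD2, the order in control libraries ran SNRPC (192 ± 4.59 FPKM), SF3B5 (167 ± 2.05), SF3B6 (88.7 ± 2.59), LSM2 (87.4 ± 0.636) and LSM4 (84.5 ± 1.32). Of the neighbours in this order, the SD ranges of SF3B6 and LSM2 overlapped and the others did not. At the low end stood PRPF38B (4.66 ± 0.255 FPKM), PRPF39, LSM8 (2.72 ± 0.135), LSM11 and PRPF40B. The spread was 15.1-fold within SF3A and SF3B, 6.62-fold within the tri-snRNP group and 30.4-fold within the LSM ring. The last of these rests on LSM8. The authors' FPKM values imply a length of 19579 bases for LSM8, against 6210 bases for all its exons in GENCODE v29, and it ranked 44 of the members by FPKM but 36 by CPM per kilobase of its longest coding transcript. On that second scale the LSM ring spanned 11.5-fold, from LSM6 to LSM4. Over the 46 members the ranks on both scales had a Spearman correlation of 0.945, which is across genes of the same libraries.

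The fold changes of the members were lower where the G and C (GC) content of their transcripts was higher. Across the 46 members Pearson's r was -0.58 and Spearman's rho -0.59, and across 16055 tested genes they were -0.22 and -0.33, as descriptions over genes that share the same libraries. Of 18 members below 45% GC, 11 were positive, 1 was called higher and none lower (median 0.021), beside 245 higher and 32 lower of 5669 genes (median 0.051). Between 45% and 55%, 11 of 14 members were negative and none was called (median -0.041), beside 112 higher and 136 lower of 5484 genes, of which 2803 were negative (median -0.0040). At 55% and above, 12 of 14 were negative, 4 were called lower and none higher (median -0.055), beside 33 higher and 413 lower of 4902 genes (median -0.050). All 4 members that fell thus lay in the upper class and PRPF39 in the lower. The correlation of GC content with each library's deviation from the control mean was -0.25, -0.26 and 0.35 over the members for control replicates 1, 2 and 3, and -0.57, -0.64 and -0.29 for LARP6 replicates 1, 2 and 3. The control deviations cancel for each gene, so their correlations must take both signs. The LARP6 values have no such limit but share the error of the control mean, so the 2 sets cannot be compared directly.

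**Figure D4:**
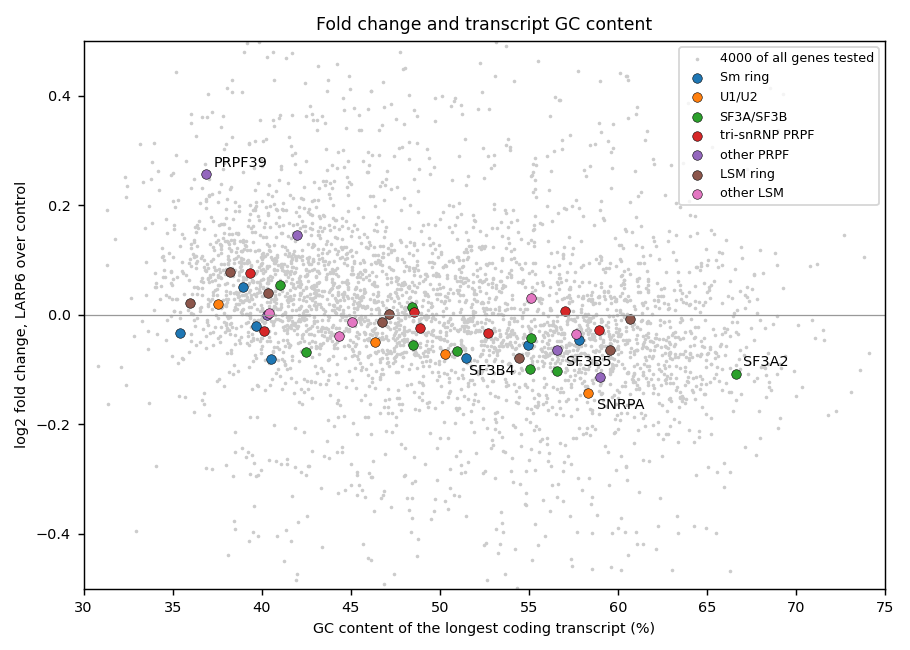
Log2 fold change (y axis, LARP6 over control) against GC content of the longest coding transcript (x axis) for tested members, coloured by role, over a random 4000 of all genes tested in grey. The axes leave out 156 of the grey genes, and the members slope downward from PRPF39 on the left to SF3A2 on the right.

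With offsets that take out each library's trend on GC content and length, 580 of 16055 genes were called (3.61%, with 1.2% higher and 2.42% lower) and none of the 5 member calls held. SNRPA moved to a log2 fold change of -0.083 (edgeR adjusted p = 0.132) and PRPF39 to 0.18 (0.123). SF3A2, SF3B5 and SF3B4 moved to -0.045 (edgeR adjusted p = 0.537), -0.028 (0.717) and -0.062 (0.303). In their place SNRPD1, at a GC content of 40.5% and 4909 bases, passed with -0.14 (SE 0.029, edgeR adjusted p = 0.00035). SF3B3, at 48.5% and 9720 bases, passed with -0.099 (SE 0.028, edgeR adjusted p = 0.0255). Both had lain wholly below the control libraries without the offsets. The median transcript length of the tested members was 2351 bases, and SF3B3 had the longest. Spearman's rho of fold change with length was 0.31 over the members and 0.22 over all genes tested. Which of GC content and length moved each call was not tested. No member was called higher in this fit, so all 7 members called with or without the offsets depend on this choice. The median over the members was -0.033 with the offsets, with 32 of 46 negative. Whether the GC trend arose in the cells or in the preparation of the libraries was not tested.

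**Figure D5:**
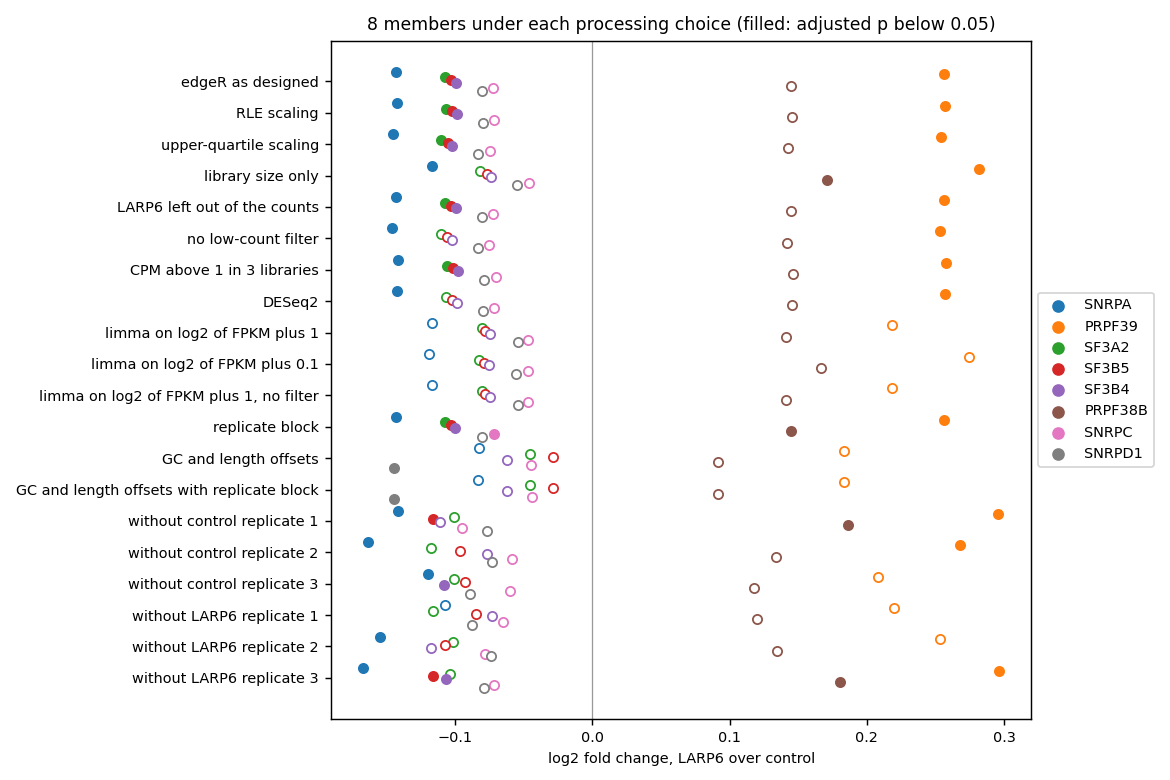
Log2 fold change (x axis, LARP6 over control) of the 8 members with the smallest p under each of the 20 fits made, which are listed down the y axis from the fit as reported to those without single libraries; filled points have an adjusted p below 0.05. No estimate changes sign, and the fits with GC and length offsets call SNRPD1 but none of the 5 members called without them.

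Partners of the same particles outside the naming rule were counted in the same fit. Of 88 such genes in 5 lists, 2 rose and 2 fell, where 2.43% and 3.6% of all genes did so, with a median log2 fold change of -0.0055. Among 29 further proteins that belong to or act with the U1, U2, U5 and tri-snRNPs (median -0.019), TIA1 rose and EFTUD2 fell. TIA1, which helps U1 bind weak 5′ splice sites, read 14.7, 14.6 and 16.0 CPM in control libraries and 20.4, 23.7 and 18.7 CPM in LARP6 libraries, without overlap (log2 fold change 0.47, SE 0.074, edgeR adjusted p = 1.1e-06). EFTUD2, the U5 GTPase, went from 178 ± 8.44 to 166 ± 1.66 CPM (edgeR adjusted p = 0.0262 for a log2 fold change of -0.10 with SE 0.031). Among 12 proteins of the minor spliceosome (median 0.0082), CENATAC, which acts on introns of the minor class with AT-AN ends, rose. It read 17.2, 15.7 and 15.8 CPM in control libraries and 23.5, 22.6 and 21.4 CPM in LARP6 libraries, again without overlap (log2 fold change 0.47, SE 0.070, edgeR adjusted p = 1.4e-07). With GC and length offsets, TIA1, CENATAC and EFTUD2 kept their calls at log2 fold changes of 0.37, 0.51 and -0.11. Of the 19 alternative fits, CENATAC was called in 18, TIA1 in 16 and EFTUD2 in 11. The EFTUD2 call was lost with DESeq2 (adjusted p = 0.0704), with scaling by library size only (edgeR adjusted p = 0.119), and without control replicate 3 (0.369), LARP6 replicate 1 (0.144) or LARP6 replicate 2 (0.103).

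Among 22 proteins of the Prp19 complex and of the catalytic and release steps (median 0.0074), BUD31 fell from 109 ± 1.32 to 101 ± 3.70 CPM (edgeR adjusted p = 0.0459 for a log2 fold change of -0.11 with SE 0.035). BUD31 did not pass with GC and length offsets (-0.057, edgeR adjusted p = 0.424), with DESeq2 (adjusted p = 0.0825) and with scaling by library size only (edgeR adjusted p = 0.170). Of the fits that left out single libraries, only that without LARP6 replicate 1 kept it, and the others gave edgeR adjusted p-values from 0.0733 to 0.212. The SMN machinery that loads Sm rings onto snRNA had 0 of 17 called (median -0.017). Its smallest p-values belonged to COIL, the Cajal body protein coilin, with 0.19 on the log2 scale (SE 0.076, edgeR adjusted p = 0.133), and to SNUPN, the snRNP import adaptor, at -0.17 (SE 0.099, edgeR adjusted p = 0.357). The partners of the cytoplasmic LSM ring in decapping and decay had 0 of 8 called (median 0.0099). DCP2, the decapping enzyme, was at 0.15 (SE 0.055, edgeR adjusted p = 0.0734) and DDX6, a helicase of the same pathway, at 0.080 (SE 0.036, edgeR adjusted p = 0.198).

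Features that the naming rule did not use were also compared. The members lie on 20 chromosomes, with 7 on chromosome 1 and 7 on chromosome 19, and the latter had a median GC content of 58.9%. Transcripts with a retained intron are annotated for 24 of the 46 (52.2%, beside 47.4% of all genes tested), and the median log2 fold change was -0.033 for those with and -0.020 for those without. Of the genes that rose, PRPF39 has 5 such transcripts of 12, TIA1 9 of 20 and CENATAC 6 of 10. Of those that fell, SF3A2 has 5 of 7, SNRPA 3 of 11, EFTUD2 14 of 26 and BUD31 4 of 9, while SF3B4 and SF3B5 have none. A count per gene cannot tell such transcripts from the coding ones. In promoters of 300 bases (250 before to 50 after the start, RefSeq, GRCh38.p14), matched for 38 members, the ETS-type letters CCGGAAG occurred on either strand in 17 members (44.7%), beside 21.7% of 11133 matched genes tested and 10.3% of all 35116 promoters. The letters CCAAT occurred in 44.7% (42.9% of the genes tested), the GC box letters GGGCGG in 63.2% (76.0%) and TATAAA in 2.63% (8.59%). These are matches of letters in a window, not sites shown to be bound.

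Of the 5 called members, 3 overlap a protein-coding gene on the opposite strand, and the strand setting of the authors' counting is not stated in the labels. Members that were not called also have such overlaps, among them SNRPD2, SNRPD3, PRPF31 and LSM1. SNRPA overlaps C19orf54 (4393 counts in all, log2 fold change -0.059, SE 0.065), and PRPF39 overlaps FKBP3 (18112 counts, log2 fold change 0.030, SE 0.035). SF3A2 overlaps PLEKHJ1 (14412 counts), which had nearly the same estimate as SF3A2 itself (log2 fold change -0.11, SE 0.038, edgeR adjusted p = 0.0645), and the part of shared reads in either was not tested. Of the called members, SF3B4 shares 3.68% of its 75-base stretches with other genes and the other 4 share none.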

How the data were processed

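Messenger RNA was made into libraries with a stranded kit and read as pairs on an Illumina sequencer, per the labels' protocols. The authors deposited raw counts per gene and, in another table, FPKM values, with 1 column per library. The submitters' processing notes name HISAT2, DESeq2 and GRCh38. Neither the counter nor its annotation is given in the sources used here.

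Counts were tested across all genes with edgeR 4.0.16 (R 4.3.3): expression filter, TMM scaling, robust quasi-likelihood test, no covariate, Benjamini-Hochberg adjustment over 16226 genes. DESeq2 1.42.0, limma 3.58.1 on log2 of the deposited FPKM, other scalings and filters, GC and length offsets, a replicate block and fits without single libraries were alternatives. Gene lengths, GC content and coordinates are from GENCODE v29.

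The members, their role groups and the partner lists were chosen with earlier results of these data known. Values in every library were given for called members, for the 8 smallest p-values, and for the highest and lowest FPKM per role. From each partner list, up to 4 called genes, or else the 2 with the smallest p, were named. SF3B1, PRPF8 and LSM1 were chosen after their values were seen. The set counts include 1 tested member that is not reported here by name and is left out of the plots.

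On simulated counts edgeR found 32 of 100 genes changed 1.1-fold, 76 of 100 changed 1.2-fold and 100 of 100 changed 1.5-fold, with 3.75% of calls false.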

Additional observations from a re-analysis of the deposited data

How the results depend on the processing

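Direction was kept by each of the 5 called members in all 19 alternatives. Member calls (1 higher, 4 lower, median -0.029, 979 genes called) changed as follows. Scaling by library size only gave 2 higher and 1 lower with a median of -0.0025 (all genes 0.030), while calls over all genes turned from 395 higher and 584 lower to 687 higher and 303 lower. No low-count filter gave 1 lower, and DESeq2 gave 1 lower with 617 genes called. With limma on log2 of FPKM plus 1, 0 members were called in either direction, with a median of -0.0035 (all genes 0.018) and 106 genes. With FPKM plus 0.1 these were 0, 0, -0.0040 and 105, and with FPKM plus 1 and no filter 0, 0, -0.0035 and 3. GC and length offsets gave 0 higher, 2 lower and 580 genes. The cause of these changes was not tested. Of the 88 partners (2 higher, 2 lower), 0 were called lower with DESeq2, library size only or limma, and 4 were called higher with library size only.

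Whether replicate numbers pair the libraries was not settled. The deviations of same-numbered libraries correlated at 0.0985, 0.0444 and 0.234, but LARP6 replicate 2 correlated best with control replicate 1 (0.0737). Replicate 3 of each group correlated negatively with libraries of other numbers in the other group (-0.158 to -0.104). Deviations were taken from each group's own mean, so negative values on balance follow from the positive 0.234 and add no separate evidence on pairing. The replicate block gave 2 higher and 5 lower members and 1345 genes, adding PRPF38B (edgeR adjusted p = 0.0436) and SNRPC (0.0381). With the block and the offsets, 0 members were higher and 3 lower, the added one being SNRPF (edgeR adjusted p = 0.0282).

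Leaving out each library in turn gave 0 to 2 higher, 0 to 3 lower, medians of -0.034 to -0.015 and 456 to 1040 genes, with 650 genes without control replicate 2, 459 without LARP6 replicate 1 and 456 without LARP6 replicate 2. With 32 of 100 simulated 1.1-fold changes recovered, changes of the size seen in most members were often not detectable at this number of libraries.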
